A study of Homo sapiens with 4 samples.

Results

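Immediate early genes are transcribed within minutes of a growth factor, stress or cytokine signal without new protein synthesis, and 32 of them were followed here in a pair of ovarian carcinoma lines. They were chosen by gene symbol from the deposited count table of 58051 genes and comprise the AP-1 factors of the Fos and Jun families with ATF3 and MAFF, the EGR, KLF and NR4A factors, MYC, SRF, the IER proteins with CSRNP1, the ZFP36 RNA-binding proteins, and the effectors ARC and PTGS2. All 32 were found in the table. IGROV1 is an established human ovarian carcinoma line. The wild-type group (WT) is labelled cisplatin susceptible and had 2 libraries. The cisplatin-resistant group (CR), also with 2 libraries, was derived from WT by pulses of cisplatin, a DNA-crosslinking platinum drug, of 4 h each with 3 weeks of recovery between them, at rising concentrations over 5 months and 6 cycles. Both lines were harvested in log growth without drug, so the comparison concerns levels in unstimulated cultures of 1 resistant line and its parent. The replicates are called biological, with nothing further on their origin, so p-values measure the spread between these libraries.

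Signals that reach these genes pass largely through the RAS, RAF, MEK and ERK cascade and the stress kinases JNK and p38. ERK phosphorylates ternary complex factors such as ELK1, which sit with the serum response factor SRF on the CArG box, a promoter element, while cyclic AMP and stress signals act through CREB-type factors on the cyclic AMP response element. The products bind DNA as dimers (Fos with Jun) or singly (EGR, KLF, NR4A), or act in feedback, as the ZFP36 proteins do by sending AU-rich mRNAs to decay. In carcinoma cells, FOSL1 and EGR1 are often measured as outputs of ERK signalling.

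PolyA RNA was sequenced from strand-marking libraries. Library totals ranged from 23886257 to 24727362 counts. Of the 32 members, 29 passed the low-count filter and were tested, 25 of them with both groups above it. FOSB and EGR2 passed through CR alone, and NR4A3 and ARC through WT alone, so these 4 were kept only by the group in which they were higher. In the edgeR quasi-likelihood fit across 17304 genes, 8 members rose in CR and 4 fell at a Benjamini-Hochberg adjusted p of at most 0.05, while 17 did not pass. Over all genes tested 13.5% were called, 5.44% higher and 8.1% lower; the members' shares were 27.6% higher and 13.8% lower. Among the 25 members with both groups above the filter, 7 rose and 3 fell. The shares over all genes with both groups above it are not given here, so these counts are not compared. More members were called when either WT library was left out and fewer when either CR library was, as among all genes tested. The median log2 fold change (CR minus WT) was 0.50 over the 29 members and -0.01 over all genes tested. Epithelial markers were abundant in both lines, with 2 of the 11 tested rising and 5 falling. The 12 markers summed to 5479 and 3807 CPM (counts scaled to a common library size) in WT and to 2826 and 2958 in CR. KRT8, at 1760.0 and 1485 CPM in WT and 636 and 620.2 CPM in CR, was among those that fell. So were KRT7 (mean 395 CPM in WT and 5.02 in CR, edgeR adjusted p = 0.000309) and MSLN (mean 191 and 45.9 CPM, edgeR adjusted p = 0.00465). PAX8 lay between 286 and 546 CPM in all libraries. The summed markers of other cell types were lower in CR, although the endothelial gene PECAM1, which passed the filter through CR alone, rose. The 6 leukocyte markers summed to 13.2 and 10.9 CPM in WT and to 2.63 and 3.60 in CR, with PTPRC under 0.5 CPM throughout. The 6 endothelial markers summed to 67.5 and 86.3 CPM against 34.6 and 30.6, with KDR at 0 counts. The 6 fibroblast markers summed to 59.5 and 34.5 CPM against 2.71 and 2.82, with COL1A2, DCN and LUM at 0 counts. Their part in the changes of the members was not tested. In RNA from whole cultures, fewer expressing cells and less RNA per cell cannot be told apart.

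**Figure D1:**
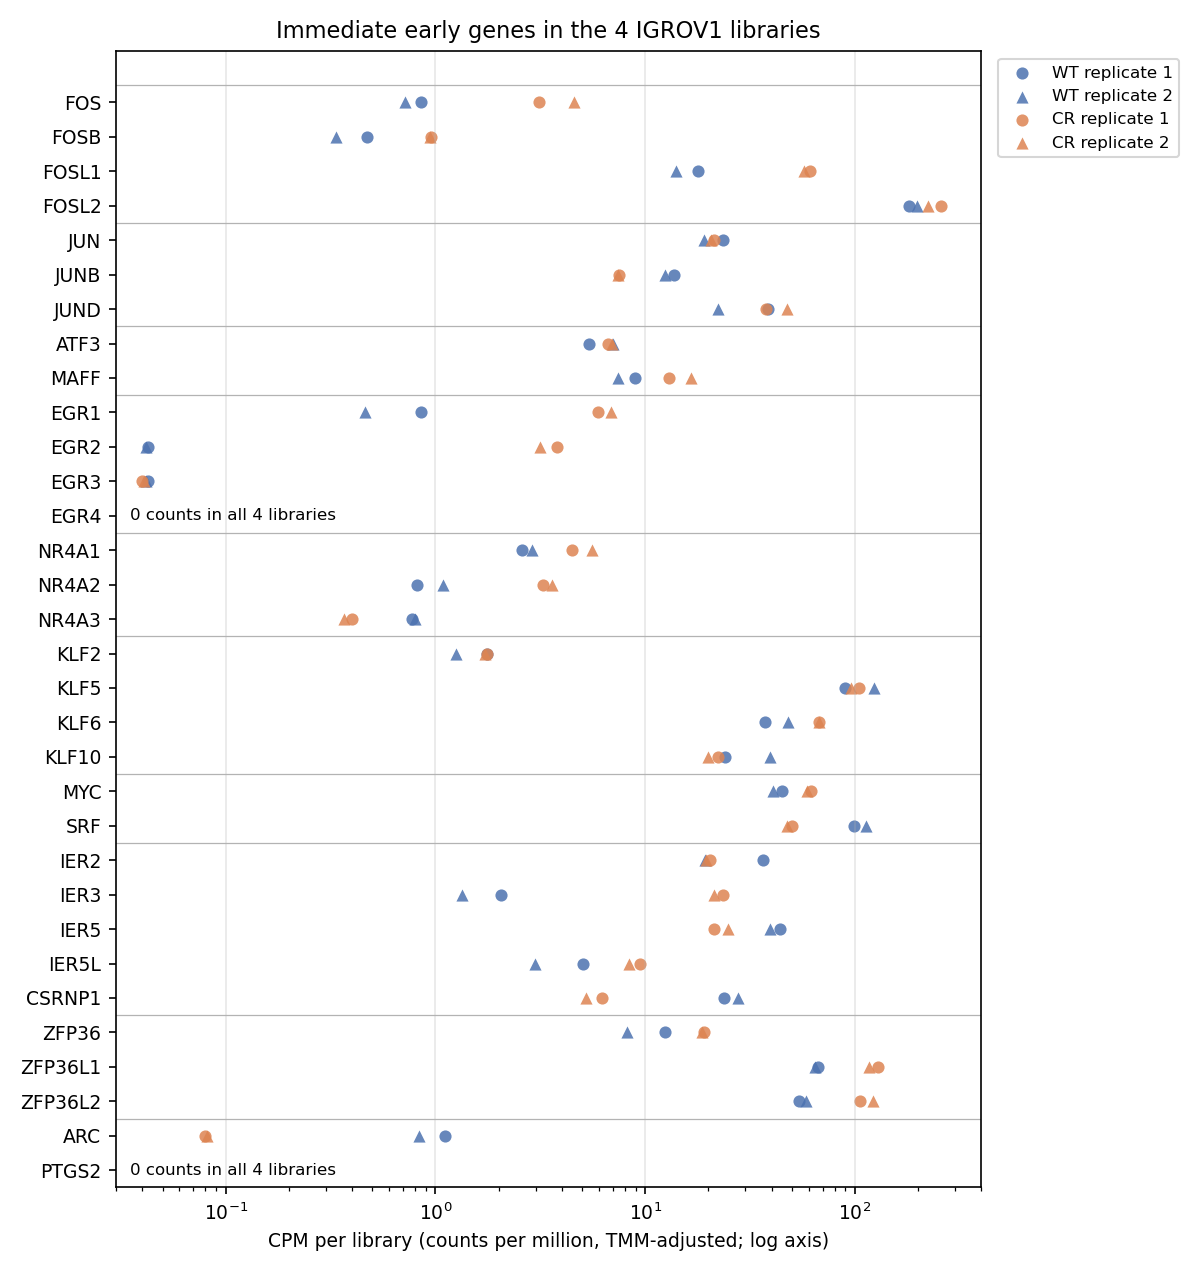
Level of each of the 32 members in each of the 4 libraries, as CPM on a log axis, with WT in blue, CR in orange and the replicate given by the symbol's shape. EGR1, EGR2, FOS, FOSL1 and IER3 lie to the right in CR and CSRNP1, SRF and ARC to the left, while EGR4 and PTGS2 had 0 counts in all 4 libraries.

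The 2 EGR factors that could be tested rose furthest in proportion, together with IER3. EGR1 and EGR2 are zinc finger transcription factors that bind GC-rich sites, and both are textbook targets of SRF. EGR1 (ENSG00000120738, chromosome 5, 138465490 to 138469315 on GRCh38) was at 0.857 and 0.461 CPM in the WT libraries and at 5.97 and 6.83 CPM in the CR libraries. The CR libraries were thus both far above the WT libraries and close to each other. Mean CPM was 0.659 ± 0.280 in WT and 6.40 ± 0.608 in CR (SD, n = 2 per group, as for all means below), a 9.74-fold rise (edgeR adjusted p = 0.00352, with a log2 fold change of 3.27 and an SE of 0.43). EGR2 (chromosome 10, 62811996 to 62919900) had 1 count in each WT library, and 95 and 77 counts in the CR libraries, or 3.78 and 3.15 CPM. The gene was close to absent in WT and present in both CR libraries, with a ratio of 81.9 whose 95% counting interval ran from 22.3 to 682 (edgeR adjusted p = 0.00094). EGR2 passed the low-count filter through CR alone, the group in which it was higher. EGR3 had 1 count in each of the 4 libraries and EGR4 had 0 counts in all of them. A count of 0 allows up to 3 counts over a group, or 0.0635 CPM in WT and 0.0605 CPM in CR, so no difference in EGR4 was detectable at this depth. The single counts of EGR3 likewise allow no comparison.

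The promoters of these genes are shown because EGR1, EGR2 and SRF itself were the 3 members whose RefSeq promoter window held a CArG box, and SRF moved opposite to the EGR genes. RefSeq windows (GRCh38.p14, 250 bases before to 50 after a transcript start) were found for 24 of the 32 members, as 33 windows in all. ZFP36L2, MYC, EGR3, FOSL1, NR4A2, ARC, IER3 and KLF10 had no entry. The CArG box (CC, then 6 bases that are each A or T, then GG; its reverse complement has the same form) occurred in 3 of the 33 member windows and in 1.29% of all 35116 windows. The capitals below mark it in EGR1 (chr5:138465229-138465528, plus strand), in the EGR2 window that holds it (chr10:62816317-62816616, minus strand) and in SRF (chr6:43171019-43171318, plus strand).
EGR1: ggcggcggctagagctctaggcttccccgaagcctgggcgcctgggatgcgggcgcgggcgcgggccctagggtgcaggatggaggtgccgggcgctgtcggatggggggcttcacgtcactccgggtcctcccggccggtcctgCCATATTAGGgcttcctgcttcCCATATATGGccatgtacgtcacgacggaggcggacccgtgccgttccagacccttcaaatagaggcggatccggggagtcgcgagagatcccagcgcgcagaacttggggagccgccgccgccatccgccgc
EGR2: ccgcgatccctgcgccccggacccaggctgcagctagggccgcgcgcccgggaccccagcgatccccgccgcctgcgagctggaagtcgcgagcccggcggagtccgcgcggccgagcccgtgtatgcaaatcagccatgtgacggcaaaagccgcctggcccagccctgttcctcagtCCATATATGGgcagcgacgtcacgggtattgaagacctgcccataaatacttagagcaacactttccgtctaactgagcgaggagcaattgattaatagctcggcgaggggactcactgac
SRF: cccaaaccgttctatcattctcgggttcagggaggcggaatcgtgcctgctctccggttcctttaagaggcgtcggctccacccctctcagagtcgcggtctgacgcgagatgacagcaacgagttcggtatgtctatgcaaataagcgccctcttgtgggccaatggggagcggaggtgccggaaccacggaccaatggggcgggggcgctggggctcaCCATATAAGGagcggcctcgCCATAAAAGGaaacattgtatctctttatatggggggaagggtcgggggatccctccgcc
EGR1 held 2 boxes, beginning 105 and 83 bases before the start, EGR2 held 1 at 71 bases, and SRF held 2 at 30 and 10 bases. The FOS window (chr14:75278578-75278877, plus strand) held no CArG box. Bases more than 250 before the start were not searched, so FOS may carry one further upstream. It is shown for the core of the cyclic AMP response element, TGACG, in capitals 64 bases before the start.
FOS: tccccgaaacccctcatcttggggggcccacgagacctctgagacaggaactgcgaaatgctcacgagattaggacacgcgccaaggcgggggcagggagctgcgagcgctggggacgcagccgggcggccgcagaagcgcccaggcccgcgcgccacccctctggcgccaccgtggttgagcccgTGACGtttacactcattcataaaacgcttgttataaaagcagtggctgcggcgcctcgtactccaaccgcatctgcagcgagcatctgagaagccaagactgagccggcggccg
That core, on either strand, was found in 18 of the 33 member windows, from 17 of the 24 members, and in 24.6% of all windows. The full palindrome TGACGTCA, of which the core is a part, was found in 3 of the 33 member windows (JUND, MAFF and ZFP36L1) and in 1.85% of all windows. The AP-1-type site TGANTCA was found in 1 of the 33 (FOSL2) and in 7.71% of all windows. The EGR-type site GCGNGGGCG was found in 6 of the 33 (EGR1, EGR2, KLF2, KLF6, SRF and ZFP36L1) and in 9.43% of all windows, both strands being searched each time. These matches describe the letters of the windows alone.

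The Fos family shifted towards FOSL1. FOS, the prototype immediate early factor (chromosome 14, 75278774 to 75282230), was at 0.857 and 0.712 CPM in WT and at 3.11 and 4.58 CPM in CR. Its level was low in all libraries, and both CR libraries lay above both WT libraries. Mean CPM was 0.784 ± 0.102 in WT and 3.84 ± 1.04 in CR, a 4.89-fold rise (edgeR adjusted p = 0.0134, with a log2 fold change of 2.29 and an SE of 0.42). The call was lost without CR replicate 2 (edgeR adjusted p = 0.0987). FOSL1, which encodes FRA-1 (chromosome 11, 65892049 to 65900573), was at 17.9 and 13.9 CPM in WT and at 61.2 and 57.4 CPM in CR. It rose 3.73-fold in CPM (edgeR adjusted p = 0.00293, with a log2 fold change of 1.90 and an SE of 0.24), with replicates that differed far less than the groups. FOSL2, which encodes FRA-2, was the most abundant member in CPM, at 179.9 and 196 CPM in WT and 257 and 223 CPM in CR. Its groups did not overlap, but the difference did not pass (log2 fold change 0.35, 95% interval -0.08 to 0.78; edgeR adjusted p = 0.284). FOSB, at 0.471 and 0.335 CPM in WT and 0.955 and 0.941 CPM in CR, did not pass either (edgeR adjusted p = 0.180). It overlaps ERCC1 on the opposite strand, and the strand setting of the counting is not given in the sources used here.

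Scaled to exon length (CPM per kilobase of the merged exons), FOSL1 made up 24.1% ± 4.31 of the Fos family total in WT and 47.4% ± 1.09 in CR. The share of FOSL2 was 75.0% ± 4.45 in WT and 50.5% ± 1.72 in CR. FOS and FOSB together stayed a small part of the total in both lines, with FOS at 0.691% ± 0.0924 in WT and 1.81% ± 0.609 in CR. On this scale FOSL1 went from 8.44 ± 1.48 to 31.4 ± 1.41 CPM per kilobase, and from rank 10 to rank 2 among the 29 tested members. FOSL2 was rank 1 in CR at 33.5 ± 3.41 CPM per kilobase, with replicates at 36.0 and 31.1, and the FOSL1 replicates of CR, at 32.4 and 30.4, overlapped them.

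**Figure D2:**
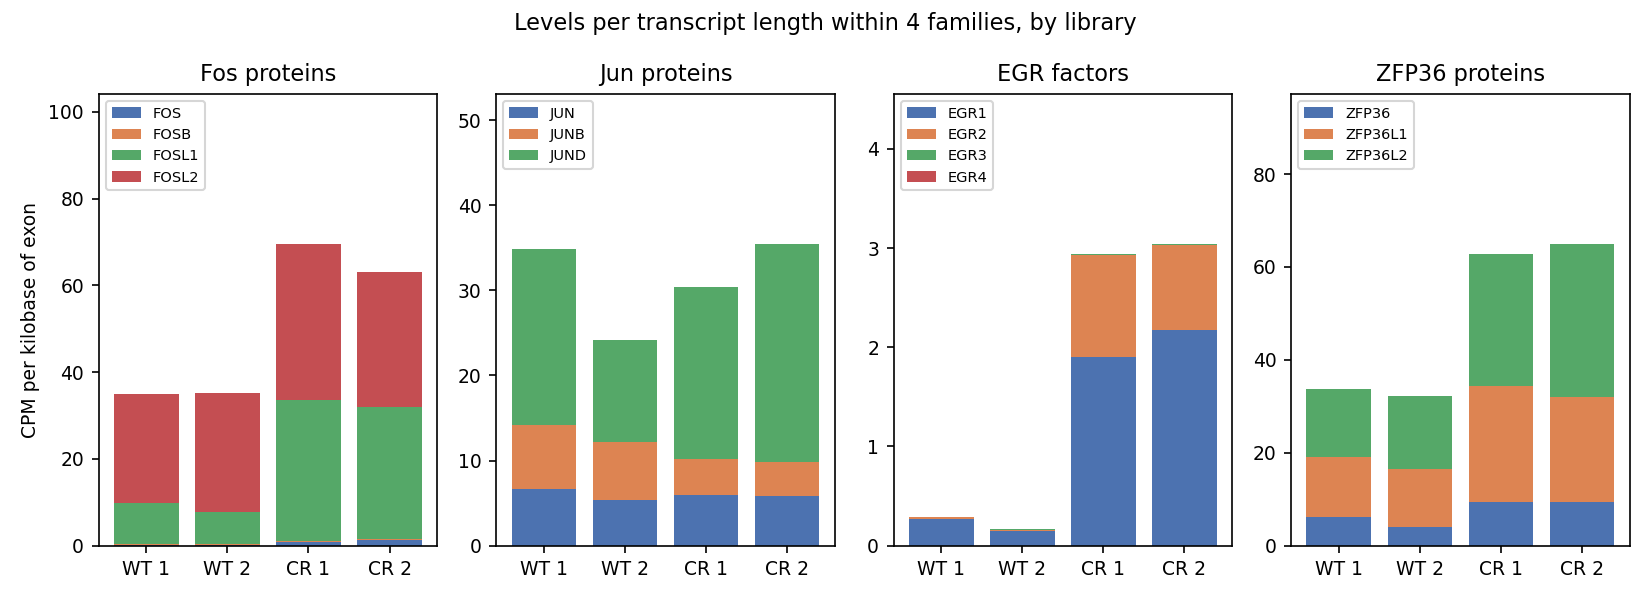
CPM per kilobase of exon in each library for the Fos, Jun, EGR and ZFP36 families, stacked by gene, with 1 bar per library and a separate linear axis per family. FOSL1 rose from 24.1% to 47.4% of the Fos total, the EGR bars were low in WT and consisted of EGR1 and EGR2 in CR, and the Jun bars overlapped between the groups.

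The Jun family, the obligate partners of Fos proteins, had no member that passed (edgeR; 1 of the 3, JUNB, at an unadjusted p under 0.05; DESeq2 and limma-voom also called 0). JUN was at 23.5 and 19.1 CPM in WT and 21.3 and 20.5 CPM in CR. The CR values lay inside the WT range (log2 fold change -0.03, 95% interval -0.58 to 0.52; edgeR adjusted p = 0.965), and the sign changed with upper quartile factors and with library size alone. JUNB was at 13.7 and 12.4 CPM in WT and 7.52 and 7.40 CPM in CR. The groups were apart, and the log2 fold change of -0.80 (95% interval -1.40 to -0.21) did not pass after adjustment (edgeR adjusted p = 0.0892). JUND varied from 22.3 to 38.6 CPM in WT and from 37.6 to 47.6 CPM in CR, with overlapping groups. JUNB was called in fits that left out a WT library, and JUND without WT replicate 1, where more of all genes were called. JUNB overlaps HOOK2 on the opposite strand. Of the other bZIP factors, ATF3, a stress-induced factor, had 6.20 ± 1.13 CPM in WT and 6.78 ± 0.244 in CR (edgeR adjusted p = 0.844). MAFF, a small Maf protein, had 8.16 ± 1.06 CPM in WT and 14.8 ± 2.54 in CR (edgeR adjusted p = 0.0910), and overlaps PLA2G6 on the opposite strand.

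IER3 showed the most pronounced gain among members with more than 20 CPM in CR. It encodes a small protein known for roles in survival and ERK signalling (ENSG00000137331, chromosome 6, 30743199 to 30744554). IER3 was at 2.06 and 1.34 CPM in WT and at 23.4 and 21.3 CPM in CR. The groups lay far apart relative to either pair of replicates, and the mean rose 13.2-fold (edgeR adjusted p = 0.000643, with a log2 fold change of 3.72 and an SE of 0.32). Its antisense neighbour IER3-AS1 had 4 counts in total, 3 and 1 in the WT libraries. IER5, a regulator of heat shock factor signalling (chromosome 1, 181088712 to 181092899), was at 44.0 and 39.4 CPM in WT and at 21.2 and 24.8 CPM in CR. It fell 1.82-fold in CPM, close to the threshold (edgeR adjusted p = 0.0488, with a log2 fold change of -0.86 and an SE of 0.22). The edgeR adjusted p rose above 0.05 with upper quartile factors (0.0612), with unscaled library sizes (0.06), under the stricter filter on low counts (0.0558), and without CR replicate 1 (0.652) or 2 (0.399), which ended the call each time. IER5L, its close relative, was at 5.06 and 2.97 CPM in WT and at 9.40 and 8.39 CPM in CR and did not pass (edgeR adjusted p = 0.0819), but was called by DESeq2 (adjusted p = 0.0332), with all genes kept in the edgeR fit (0.0214) and without WT replicate 1 (6.23e-09) or 2 (0.00219). IER2 was at 36.6 and 19.3 CPM in WT and at 20.3 and 19.5 CPM in CR, so that 1 WT library stood apart from the other 3 (edgeR adjusted p = 0.425).

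CSRNP1, a nuclear protein first described as induced by AXIN1 (chromosome 3, 39141855 to 39154562), fell in CR. It was at 23.6 and 27.6 CPM in WT and at 6.25 and 5.24 CPM in CR. Both CR libraries lay well under both WT libraries, 4.46-fold lower in CPM (edgeR adjusted p = 0.00227, with a log2 fold change of -2.16 and an SE of 0.26). GENCODE 29 lists antisense transcripts at this locus that were not analysed here. ARC, best known as a synaptic plasticity protein (chromosome 8, 142611044 to 142614472), was low in WT at 1.11 and 0.838 CPM and had 2 counts in each CR library, 0.0796 and 0.0818 CPM. It fell 12.1-fold in CPM (edgeR adjusted p = 0.0127, with a log2 fold change of -3.51 and an SE of 0.64). ARC passed the low-count filter through WT alone, the group in which it was higher. The call was lost without CR replicate 1 (edgeR adjusted p = 0.104) or 2 (0.0905). PTGS2, the inducible cyclooxygenase, had 0 counts in all 4 libraries.

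SRF, the factor through which many of the other members are induced, was lower in CR. SRF (ENSG00000112658, chromosome 6, 43171299 to 43181507) was at 99.0 and 113 CPM in WT and at 50.1 and 47.2 CPM in CR. The replicates of each group were close and the groups clearly apart, a 2.18-fold drop in CPM (edgeR adjusted p = 0.0117, with a log2 fold change of -1.12 and an SE of 0.20). Per exon length, the mean of SRF went from rank 3 of the 29 tested members in WT to rank 9 in CR. The call was lost without CR replicate 1 (edgeR adjusted p = 0.139) or 2 (0.197), where the log2 fold change was -1.16 and -1.07. MYC, the growth-promoting bHLH factor, was at 45.0 and 40.5 CPM in WT and at 61.9 and 58.9 CPM in CR. Its groups did not overlap, and the difference did not pass (log2 fold change 0.50, 95% interval 0.01 to 0.99; edgeR adjusted p = 0.184).

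NR4A2 was the only one of the 3 NR4A orphan nuclear receptors that passed. NR4A2, also known as NURR1 (chromosome 2, 156324432 to 156342348), was at 0.814 and 1.09 CPM in WT and at 3.26 and 3.60 CPM in CR. Its CR libraries were both above its WT libraries, 3.60-fold higher in CPM (edgeR adjusted p = 0.0234, with a log2 fold change of 1.84 and an SE of 0.39). The call was lost without CR replicate 1 (edgeR adjusted p = 0.117) or 2 (0.159). NR4A1 had 2.73 ± 0.226 CPM in WT and 5.01 ± 0.781 in CR (edgeR adjusted p = 0.148). NR4A3 had 0.783 ± 0.0174 CPM in WT and 0.383 ± 0.0212 in CR (edgeR adjusted p = 0.263). Both pairs of groups were apart, in opposite directions. Per exon length, NR4A2 made up 32.3% ± 3.02 of the family in WT and 53.7% ± 1.74 in CR.

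The KLF factors gave no call (edgeR; 1 of the 4, KLF6, at an unadjusted p under 0.05; DESeq2 and limma-voom also 0). KLF5, an epithelial proliferation factor, had the highest mean level per exon length of the tested members in WT, at 27.3 ± 6.22 CPM per kilobase, a lead over FOSL2 (26.3 ± 1.64) and SRF (25.2 ± 2.30) that was smaller than its own spread between replicates. Its CPM values of 89.2 and 123 in WT enclosed the 105 and 95.4 in CR. KLF6, a tumour suppressor candidate, was at 37.1 and 47.7 CPM in WT and at 67.5 and 67.7 CPM in CR (log2 fold change 0.67, 95% interval 0.15 to 1.20; edgeR adjusted p = 0.105). KLF10, a TGF-beta induced factor, was at 23.9 and 39.2 CPM in WT and at 22.2 and 19.8 CPM in CR, with WT replicate 2 above the other 3 libraries. KLF2, a flow-responsive factor of endothelium, had 1.51 ± 0.354 CPM in WT and 1.73 ± 0.0239 in CR. KLF6 was called in fits that left out a WT library, and KLF10 without WT replicate 1, where more of all genes were called.

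ZFP36L1 and ZFP36L2 rose in CR, and the third family member lay above WT in both CR libraries without passing. These proteins bind AU-rich elements, which many immediate early and cytokine mRNAs carry, and recruit the CCR4-NOT deadenylase. ZFP36L1 (chromosome 14, 68787660 to 68796253) was at 66.6 and 64.5 CPM in WT and at 128 and 117 CPM in CR, 1.87-fold higher (edgeR adjusted p = 0.0223, with a log2 fold change of 0.90 and an SE of 0.19). ZFP36L2 (chromosome 2, 43222402 to 43226609) was at 54.0 and 58.1 CPM in WT and at 105 and 122 CPM in CR, 2.02-fold higher (edgeR adjusted p = 0.0169, with a log2 fold change of 1.02 and an SE of 0.20). In both genes the gap between the groups exceeded the gap between replicates. Without CR replicate 1 or 2, the calls were lost for ZFP36L1 (edgeR adjusted p = 0.376 and 0.203) and ZFP36L2 (0.117 and 0.282). ZFP36, or tristetraprolin, was at 12.5 and 8.17 CPM in WT and at 19.0 and 18.7 CPM in CR and did not pass (edgeR adjusted p = 0.101). The shares of the 3 genes in the family total per exon length were close in the 2 lines, for example 38.5% ± 0.307 and 37.2% ± 3.29 for ZFP36L1.

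**Figure D3:**
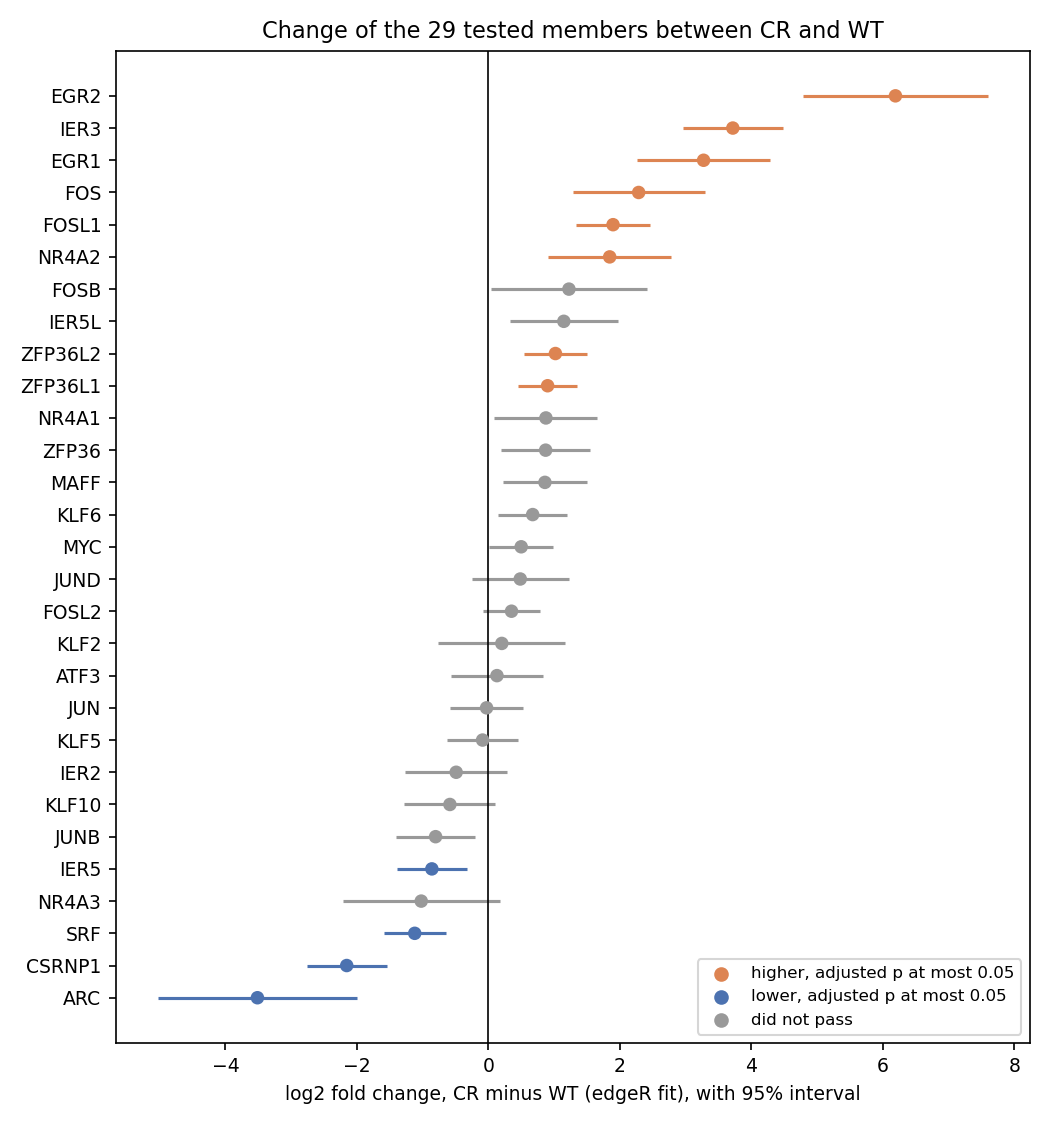
Log2 fold change (CR minus WT, edgeR) of the 29 tested members with 95% intervals, in orange for members that rose, blue for members that fell and grey for those that did not pass. EGR2 (6.19), IER3 (3.72) and EGR1 (3.27) are at the top and ARC (-3.51) and CSRNP1 (-2.16) at the bottom.

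Of the 29 tested members, 16 had both CR libraries above both WT libraries in CPM, where 27.0% of all genes tested did so, and 7 had both below, where 28.2% did so. The other 6 overlapped. Of the 17 members that did not pass, 8 lay above and 3 below, and 8 had an unadjusted edgeR p of at most 0.05. The share of all genes at that p is not given here, so the count is not read as a trend. The replicates of a member differed more in WT than in CR for 19 of the 29. The median absolute log2 ratio between replicates was 0.27 in WT and 0.13 in CR, against 0.38 and 0.15 over all genes tested. In WT, the widest gaps were in IER2 (log2 ratio of replicate 2 to replicate 1 of -0.90), JUND (-0.78) and KLF10 (0.70). In CR, FOS had the widest (0.50). The members lie in short genes. Their median span on the genome was 6562.5 bases, against 25106.5 over the tested genes found in GENCODE 29, and 28 of the 32 were under the latter. Their merged exons, with a median of 3692.5 bases, compare with 4334.5 bases for all tested genes.

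Several feedback regulators rose. Of 19 tested DUSP, SPRY, SPRED and NAB genes with ERRFI1, 5 rose and 1 fell (median log2 fold change 0.36). These are 26.3% and 5.26%, against 5.44% and 8.1% of all genes tested. DUSP4, a nuclear MAP kinase phosphatase, was at 14.8 and 19.4 CPM in WT and at 92.8 and 92.0 CPM in CR (edgeR adjusted p = 0.0010). DUSP6, the cytoplasmic ERK phosphatase, was at 16.6 and 13.0 CPM in WT and at 67.3 and 70.5 CPM in CR (edgeR adjusted p = 0.00147). SPRY2, an inhibitor of receptor tyrosine kinase signalling, was at 32.0 and 32.6 CPM in WT and at 92.4 and 96.4 CPM in CR (edgeR adjusted p = 0.00338). The list gave more calls when a WT library was left out and fewer when a CR library was, as did all genes tested.

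The kinases and SRF cofactors upstream were mostly not called, with 2 of 33 rising, 3 falling and a median log2 fold change of -0.04. Their shares, 6.06% and 9.09%, were close to those over all genes tested, 5.44% and 8.1%. RPS6KA5, the kinase MSK1 that acts on chromatin of immediate early genes, was at 2.40 and 4.86 CPM in WT and at 23.9 and 22.7 CPM in CR (edgeR adjusted p = 0.00451). MAPK11, or p38 beta, was at 4.37 and 1.76 CPM in WT and at 18.2 CPM in both CR libraries (edgeR adjusted p = 0.00978). MAPK10, or JNK3, was at 1.67 and 1.72 CPM in WT and had 1 count in each CR library (edgeR adjusted p = 0.00277). It passed the low-count filter through WT alone, the group in which it was higher. Leaving out a WT library gave more calls in this list and leaving out a CR library fewer, as among all genes tested.

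Other genes known to be rapidly induced moved in both directions. Of 34 tested, 6 rose and 5 fell, with a median log2 fold change of -0.17. These are 17.6% and 14.7%, against 5.44% and 8.1% of all genes tested. ID2, a dominant negative HLH factor, was at 7.28 and 10.2 CPM in WT and at 62.2 and 65.0 CPM in CR (edgeR adjusted p = 0.000783). PHLDA1 was at 9.08 and 6.83 CPM in WT and at 43.8 and 50.1 CPM in CR (edgeR adjusted p = 0.00119). CXCL8, the neutrophil chemokine, was at 19.5 and 71.8 CPM in WT and at 0.597 and 1.31 CPM in CR (edgeR adjusted p = 0.00391). With all genes kept in the fit, CXCL8 missed the threshold (edgeR adjusted p = 0.127). Calls in this list, like those over all genes tested, became more without a WT library and fewer without a CR library.

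Targets of SRF and its actin-regulated cofactors (MRTFs) were lower where they were called. Those that fell were 52.6% of the tested list, against 8.1% of all genes tested. Of 19 tested cytoskeletal genes 10 fell and 0 rose (edgeR; 0 higher at an unadjusted p under 0.05, and 0 by DESeq2 and limma-voom), with a median log2 fold change of -0.68. MYL9, a contractile myosin light chain, was at 641 and 753 CPM in WT and at 0.119 and 0.0409 CPM in CR (edgeR adjusted p = 9.21e-05). It passed the low-count filter through WT alone, the group in which it was higher. TAGLN, or transgelin, was at 513 and 649.9 CPM in WT and at 12.8 and 13.8 CPM in CR (edgeR adjusted p = 0.000101). CALD1, or caldesmon, was at 284 and 672 CPM in WT and at 2.27 and 2.66 CPM in CR (edgeR adjusted p = 0.000284). With the stricter filter there were 6 lower calls. More genes were called without a WT library and fewer without a CR library, as among all genes tested. A higher call appeared only without WT replicate 2. EGR1, EGR2 and FOS, which the ternary complex factors activate together with SRF, rose in the same libraries. Any link between these changes was not tested.

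Genes listed as AP-1 targets were lower in most cases where they were called. Of 16 tested, 1 rose and 6 fell, with a median log2 fold change of -0.43. These are 6.25% and 37.5%, against 5.44% and 8.1% of all genes tested. CD44, the hyaluronan receptor, was the 1 that rose, from 42.0 and 66.9 CPM in WT to 326 and 321 CPM in CR (edgeR adjusted p = 0.00125). TGFB1, a growth inhibitory cytokine, was at 34.8 and 19.2 CPM in WT and at 1.43 and 2.05 CPM in CR (edgeR adjusted p = 0.00125). MMP7, or matrilysin, was at 117 and 26.9 CPM in WT and at 0.0796 and 0.164 CPM in CR (edgeR adjusted p = 0.00159), and missed the threshold with all genes kept in the fit (0.112). MMP7 passed the low-count filter through WT alone, the group in which it was higher. More AP-1 targets were called without a WT library and fewer without a CR library, as among all genes tested.

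Relatives of the members in the bZIP, KLF and MYC families gave 3 higher and 5 lower of 32 tested, with a median log2 fold change of 0.04. These are 9.4% and 15.6%, against 5.44% and 8.1% of all genes tested. KLF7 was at 0.0428 and 0.168 CPM in WT and at 10.7 and 8.47 CPM in CR (edgeR adjusted p = 0.000613). KLF12, a repressor, was at 7.20 and 13.8 CPM in WT and at 0.199 and 0.123 CPM in CR (edgeR adjusted p = 0.000858). MYCN, a paralog of MYC, was at 4.03 and 4.90 CPM in WT and at 0.597 and 0.327 CPM in CR (edgeR adjusted p = 0.00475). KLF7 passed the low-count filter through CR alone, and KLF12 and MYCN through WT alone. Each was thus kept by the group in which it was higher. More relatives were called without a WT library and fewer without a CR library, as among all genes tested. With all genes kept in the fit, 6 were higher and 5 lower.

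Of the decay partners of the ZFP36 proteins, 20 were tested, 0 rose and 1 fell (edgeR; 0 higher at an unadjusted p under 0.05, and 0 by DESeq2 and limma-voom), with a median log2 fold change of -0.04. The 1 was TIA1, a stress granule protein, at 78.7 and 97.2 CPM in WT and at 43.0 and 51.3 CPM in CR (edgeR adjusted p = 0.0408). TIA1 missed the threshold with unscaled library sizes (0.051) and without CR replicate 1 (0.527) or 2 (0.259). Over all genes tested 5.44% rose and 8.1% fell, against 0% and 5.0% of this list. More partners were called without a WT library and fewer without a CR library, as among all genes. HNRNPD (edgeR adjusted p = 0.247) and MAPKAPK2 (0.265) were the nearest of the others.

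Heat shock genes, which also respond within minutes, gave 1 higher and 4 lower of 15 tested, with a median log2 fold change of -0.14. These are 6.67% and 26.7%, against 5.44% and 8.1% of all genes tested. CRYAB, a small heat shock protein, was at 135 and 201 CPM in WT and at 2.11 and 1.96 CPM in CR (edgeR adjusted p = 0.000138). HSPA1A was at 2.70 and 1.55 CPM in WT and at 12.0 and 7.77 CPM in CR (edgeR adjusted p = 0.0130), with HSPA1B as a near-identical copy that makes its count uncertain. HSPA1A missed the threshold when CR replicate 1 was left out (edgeR adjusted p = 0.0561). CHORDC1, a cochaperone, was at 136 and 148 CPM in WT and at 71.1 and 75.1 CPM in CR (edgeR adjusted p = 0.0167), a call lost without CR replicate 1 (0.279) or 2 (0.218). More heat shock genes were called without a WT library and fewer without a CR library, as among all genes tested.

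**Figure D4:**
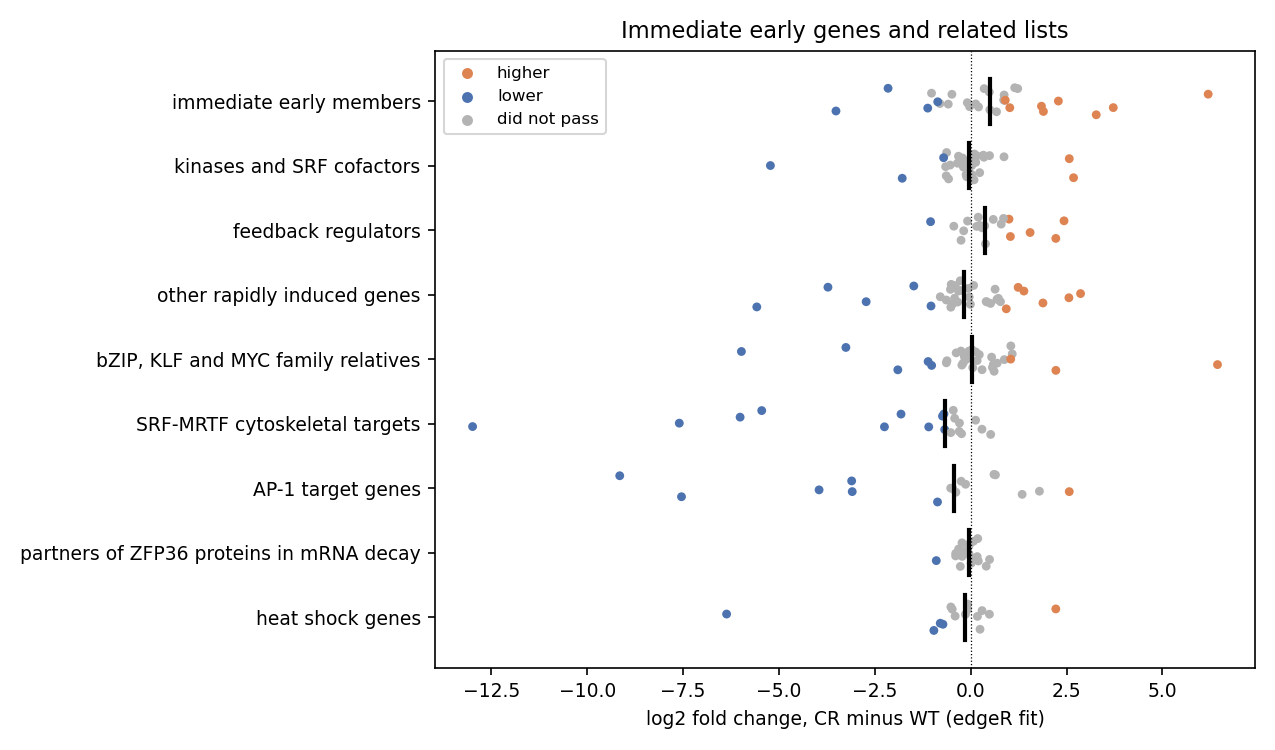
Log2 fold change (CR minus WT, edgeR) of every tested gene in the immediate early group and in 8 related lists, 1 point per gene, with the median of each list as a black bar and calls in orange (higher) and blue (lower). The medians of the immediate early members (0.50) and of the feedback regulators (0.36) are to the right of 0, and those of the SRF-MRTF targets (-0.68) and AP-1 targets (-0.43) are to the left.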

How the data were processed

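The table used gives raw counts for each library by Ensembl identifier, as deposited by the authors. The submitters' processing notes name DESeq, HTSeq and STAR 2.5.1a and the build GRCh38.p7. The sources used here say neither how each was used nor which annotation and strand option were chosen for counting. A second deposited table of normalized values was not used. Of 58051 genes, 17304 passed edgeR's filterByExpr (minimum count 10) and held 99.9% of the counts. CR minus WT was fitted in R 4.3.3 with edgeR 4.0.16 (TMM factors, robust quasi-likelihood test, two-sided, group as the only term) and Benjamini-Hochberg adjustment over all genes tested, at 0.05.

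CPM uses TMM-adjusted library sizes, and folds are ratios of summed counts on that scale. SE was taken from the F statistic and the log2 fold change. Intervals are 95% and use the fit's degrees of freedom. The EGR2 ratio has an exact (Clopper-Pearson) counting interval, which like the floor of 3 counts covers counting error only. With 2 libraries a group, the smallest two-sided p of an exact permutation test is 0.333, so none is given. Coordinates and exon lengths come from GENCODE 29 (GRCh38) by Ensembl identifier. MRTFA, MRTFB, CCN1 and CCN2 were matched by older symbols. All members are accounted for; from each related list the 3 genes with the smallest adjusted p are named. Members and lists were chosen with earlier results of these data known. The code was tested on simulated data. Alternatives were RLE, upper quartile and no factors, 2 other filters, DESeq2 1.42.0, limma-voom (limma 3.58.1), a replicate block, and leaving out each library.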

Additional observations from a re-analysis of the deposited data

How the results depend on the processing

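EGR1, EGR2, FOSL1, IER3 and CSRNP1 were called in the same direction in all 13 settings, the reported fit included. Of these, EGR2 passed the low-count filter through CR alone, the group in which it was higher. The members that rose numbered 8 and those that fell 4. Leaving out 1 library gave 4 to 15 higher and 1 to 6 lower: 15 and 6 without either WT library, then 5 and 1 when CR replicate 1 was dropped, and 4 and 1 when CR replicate 2 was. In these fits the group left with 1 library is assumed to vary like the other pair, and over all genes calls went from 942 higher and 1402 lower to 3589 and 3733, 3864 and 4015, 537 and 883, and 610 and 928 in the same order. The stricter filter (mean CPM of at least 1) gave 8 higher and 2 lower; it removed ARC, and IER5 was not called. With no low-count filter 10 rose, IER5L and ZFP36 among them, and 1454 genes rose in all. The replicate numbers are not stated to mark a shared batch, and with the replicate block 9 members rose and 4 fell, the added call being IER5L (edgeR adjusted p = 0.0331); deviations of same-numbered libraries from their group means correlated at -0.19 across genes.

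Directions changed only in members that did not pass. The log2 fold change of JUN was 0.013 with upper quartile factors and 0.025 with library size alone. When 1 library was left out, the log2 fold changes ran from -0.17 to 0.13 for JUN, from -0.048 to 0.33 for ATF3, from -0.019 to 0.46 for KLF2, from -0.31 to 0.16 for KLF5 and from -0.88 to 0.040 for IER2. The cause was not tested. Related lists shifted likewise without a WT library, for example to 9 higher feedback regulators in both fits, and to 14 and 13 lower SRF-MRTF targets. Those targets had 6 to 7 lower calls with the stricter filter, upper quartile factors, library size alone or without a CR library. With 2 libraries a group, changes of low-count members such as FOS, NR4A2 and ARC rest on few counts.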
